A study of Mus musculus with 2 samples.

Results

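TRA chains that use a TRAJ segment numbered 1 to 9 were described in TCR libraries of thymic CD4 SP T cells. TRAJ is the joining segment of the TCR alpha (TRA) chain, and these segments are the last ones before the alpha constant gene TRAC. Members were all TRA contigs whose deposited J call was TRAJ with a number from 1 to 9, and there were 240 among 1862 TRA chains of the WT library and 384 among 1920 of the Btla-/- library, or 624 of 3782 in all. They came from 229 WT and 369 Btla-/- cells. Any TRA chain was found in only 1704 of 4040 WT cells and 1798 of 5077 Btla-/- cells. All shares below are therefore shares of the TRA chains that were captured.

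CD4 SP thymocytes were enriched by negative selection with a kit for naive CD4 T cells. The WT mice carried the strain label C57BL/6J and the knockout mice C57BL/6-Btla KO, the labels gave no treatment other than the genotype, and both groups were aged 8 to 12 weeks. Each genotype was 1 library, the number of mice behind it was not given in the sources used here, and no test between genotypes was possible. Intervals are therefore 95% intervals of counting error only, exact (Clopper-Pearson) for shares, and mouse-to-mouse or preparation differences lie outside them. The libraries hold TCR transcripts alone, so neither the Btla genotype nor the CD4 SP identity could be checked against marker genes. The deposited contigs held 26700294 reads and 80347 unique molecular identifiers (UMIs, counts of captured transcripts) for WT, and 22026825 reads and 75456 UMIs for Btla-/-. The libraries had 30 cell barcodes in common, of which 0 WT and 2 Btla-/- barcodes carried a member chain.

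In a developing thymocyte the RAG recombinase joins a TRAV gene to a TRAJ segment and deletes the DNA between them. The first joins use TRAV genes near the J cluster and TRAJ segments at its 5′ end. While the cell has not been positively selected, further joins can follow with TRAV genes farther upstream and TRAJ segments farther downstream, so a chain with a segment next to TRAC leaves little or no J sequence for another attempt. The V gene encodes the start of CDR3, the loop that contacts the peptide, and the J segment encodes its end and the framework strand after it.

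The segments lie on chromosome 14 of GRCm38, on the plus strand. Reading towards TRAC, which spans chr14:54220521-54224206, they start 11.1 kb before it with TRAJ9 and end 2.69 kb before it with TRAJ2, where distance is counted from the start of each segment. The germline segments below, in locus order, were read from the genome because they set the length and end of the CDR3s described further on. The capital codon is the last codon of the CDR3, so the letters before it are J bases that can enter the CDR3 and the letters after it encode the framework.

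TRAJ9, chr14:54209393-54209450: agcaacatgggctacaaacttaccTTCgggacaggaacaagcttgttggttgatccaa
TRAJ7, chr14:54211470-54211528: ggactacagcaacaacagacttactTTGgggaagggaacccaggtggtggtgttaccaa
TRAJ6, chr14:54212688-54212749: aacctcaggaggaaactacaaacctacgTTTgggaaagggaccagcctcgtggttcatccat
TRAJ5, chr14:54213777-54213838: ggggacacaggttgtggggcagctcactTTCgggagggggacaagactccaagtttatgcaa
TRAJ4, chr14:54216291-54216353: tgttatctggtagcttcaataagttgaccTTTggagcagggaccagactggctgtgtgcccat
TRAJ2, chr14:54217836-54217901: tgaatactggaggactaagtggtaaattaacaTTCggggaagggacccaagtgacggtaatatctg

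Directly upstream of each segment stands its recombination signal, the sequence that RAG recognises: a nonamer, a spacer of 12 bases and a heptamer that abuts the segment. The signals are shown because every rearrangement to these segments uses them, and the capitals mark the nonamer and the heptamer.

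TRAJ9 signal: CCATTTTGTcacaggacaaatCACTGTG
TRAJ7 signal: CGTTTTTGTgaagcacttactCAGAGTG
TRAJ6 signal: GGTTTCATCaaaggctttcctCACTGTG
TRAJ5 signal: GGTATTTGTactgtgctgtacTAGGGTG
TRAJ4 signal: AATTCTTGTaaagcacctttcTACTGTG
TRAJ2 signal: GGCTTCTGTaaaggtgtcaccTGCAGTG

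TRAJ9 and TRAJ6 had the consensus heptamer in full, with 7 of 7 matches, TRAJ4 had 6, TRAJ7 had 5, and TRAJ5 and TRAJ2 had 4 each. Against the consensus nonamer, TRAJ7 and TRAJ5 had 8 of 9 matches, TRAJ2 had 7, TRAJ9 and TRAJ4 had 6 and TRAJ6 had 5. The consensus heptamer, in the orientation shown, is CACTGTG and the consensus nonamer GGTTTTTGT, both read on the plus strand at the fixed place only. Among the other 37 TRAJ segments with chains the median was 6 heptamer and 7 nonamer matches, and 11 of them had the full heptamer and 2 the full nonamer. These windows were fixed by the annotated start of each segment, so a start annotated some bases off gives too few matches. In WT, TRAJ5 and TRAJ2, with 4 heptamer matches, had the lowest shares of the 6 segments (1.29 and 1.45% of TRA chains). TRAJ9, with 7, had the highest (3.22%), while TRAJ6, also with 7, had 2.15%. TRAJ7, with 5, had 2.42% and TRAJ4, with 6, had 2.36%, both above TRAJ6. In the Btla-/- library TRAJ2 had the highest share (4.84%) and TRAJ5 the lowest (1.35%). A link between matches and use was not tested.

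No chain carried TRAJ1, TRAJ3 or TRAJ8. TRAJ1 and TRAJ8 are annotated as pseudogenes, and TRAJ3 as a J gene. Only productive contigs were deposited, so the absence of the pseudogenes may follow from that and sets no limit on their joins. For TRAJ3 the absence allows a share of up to 0.161% among WT chains and 0.156% among Btla-/- chains (3 counts of the total). The members thus came from 6 segments, of 43 TRAJ segments with any chain.

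The segments nearest TRAC were more used in the Btla-/- library than in the WT library. Chains with TRAJ1 to TRAJ9 made up 12.9% of TRA chains in WT (95% interval 11.4 to 14.5%) and 20.0% in Btla-/- (18.2 to 21.9%), a difference of 7.11 percentage points (Newcombe interval 4.76 to 9.46). The Btla-/- share was 1.55 times the WT share. The block at the opposite end of the cluster, TRAJ42 to TRAJ58, differed the other way, with 30.1% in WT and 22.9% in Btla-/-. The neighbouring block TRAJ11 to TRAJ18 took 14.1% in WT (12.6 to 15.8%) and 17.4% in Btla-/- (15.7 to 19.2%). Its difference of 3.27 points had a Newcombe interval above 0 (0.948 to 5.59), although the exact intervals overlapped. TRAJ21 to TRAJ30 took 21.6% and 20.6%.

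Within the members the difference lay mainly in the 2 segments closest to TRAC that were used at all. TRAJ2, the last of them, was found in 27 WT chains (1.45%, 0.958 to 2.10%) and 93 Btla-/- chains (4.84%, 3.93 to 5.90%), a ratio of 3.34. TRAJ4 was found in 44 WT chains (2.36%, 1.72 to 3.16%) and 92 Btla-/- chains (4.79%, 3.88 to 5.84%), a ratio of 2.03. Both pairs of intervals stood apart. Together TRAJ2 and TRAJ4 differed by 5.82 points (4.25 to 7.43) between the libraries. This pair is made of the segments whose intervals stood apart in these same data, so its interval is no separate support.

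The other 4 segments had overlapping intervals. TRAJ6 was found in 40 WT chains (2.15%, 1.54 to 2.91%) and 63 Btla-/- chains (3.28%, 2.53 to 4.18%), a ratio of 1.53. TRAJ9 was found in 60 WT chains (3.22%, 2.47 to 4.13%) and 73 Btla-/- chains (3.80%, 2.99 to 4.76%). TRAJ5 had 24 WT chains (1.29%, 0.828 to 1.91%) and 26 Btla-/- chains (1.35%, 0.886 to 1.98%), the lowest Btla-/- share of the 6. TRAJ7 was the only member with a lower share in Btla-/-, at 2.42% in WT (45 chains, 1.77 to 3.22%) and 1.93% in Btla-/- (37 chains, 1.36 to 2.65%). TRAJ5, TRAJ6, TRAJ7 and TRAJ9, the segments left after that choice, together differed by 1.29 points. The Newcombe interval, from -0.605 to 3.18, included 0. By the same kind of interval TRAJ6 alone differed by 1.13 points (0.0915 to 2.19), which is above 0. With at least 3 UMIs (-0.272 to 2.63) or with distinct chains counted once (-0.119 to 2) the TRAJ6 interval included 0.

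Size was read by a fixed rule, a Btla-/- share at least 1.5 times the WT share among the 41 TRAJ segments that reached 1% of chains in either library. By this rule 3 of 6 members were called (TRAJ2, TRAJ4 and TRAJ6), and over all segments 7.32% were called, which are the same 3. TRAJ6, at 1.53, was just inside the threshold, and TRAJ15, at 1.49, was the nearest segment outside it. In the other direction, a Btla-/- share of at most the WT share divided by 1.5, 0 of 6 members were called against 12.2% of all segments. The exact interval of the Btla-/- library lay wholly above that of WT for 2 of 6 members (TRAJ2 and TRAJ4) and for 4.88% of all segments, which are the same 2.

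**Figure D1:**
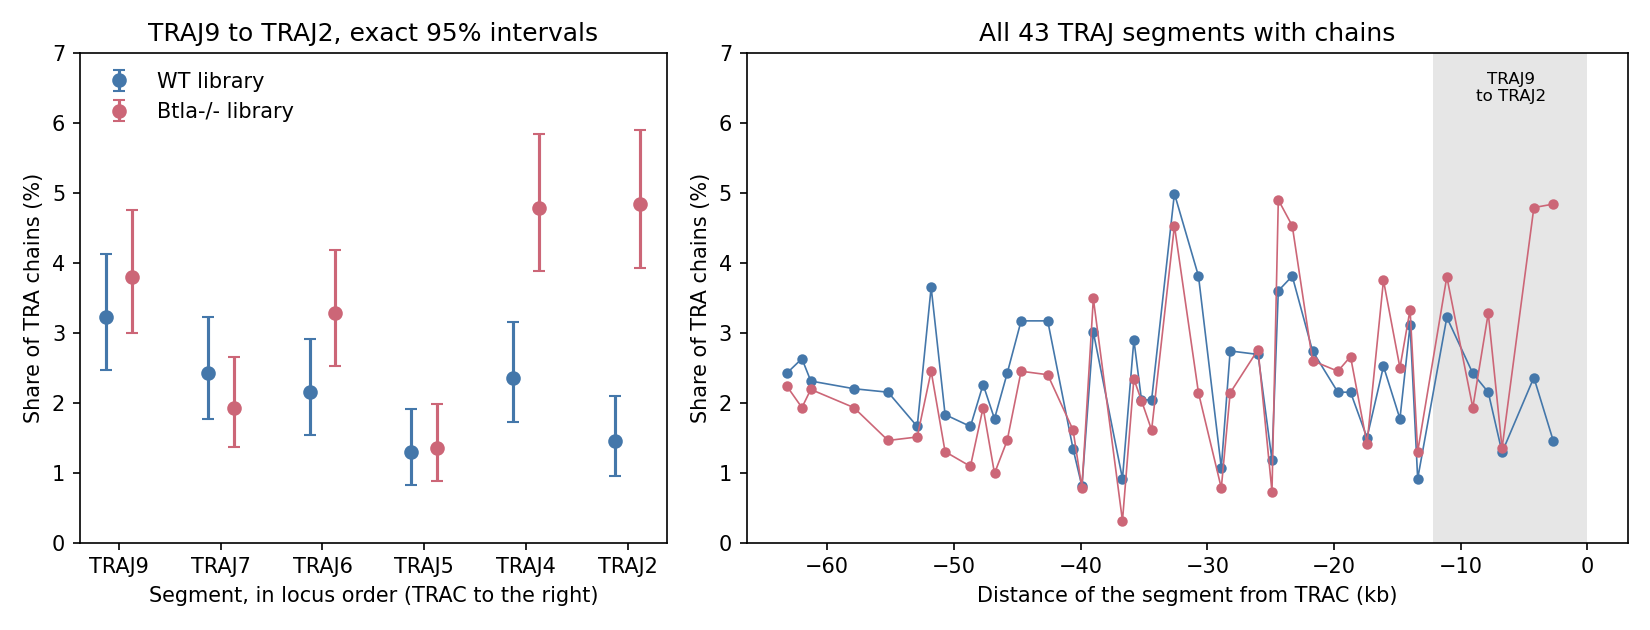
Share of TRA chains (%) for each TRAJ segment in the WT library (blue) and the Btla-/- library (red). Left, TRAJ9 to TRAJ2 in locus order with exact 95% intervals, which stand apart for TRAJ4 and TRAJ2. Right, all 43 segments with chains against their distance from TRAC in kb, with TRAJ9 to TRAJ2 shaded.

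Use did not fall steadily towards TRAC. In WT the order of the segments from the highest share was TRAJ9, TRAJ7, TRAJ4, TRAJ6, TRAJ2 and TRAJ5, and no pair of neighbours in that order had intervals that stood apart. In Btla-/- the order was TRAJ2, TRAJ4, TRAJ9, TRAJ6, TRAJ7 and TRAJ5, again with overlapping intervals between neighbours. TRAJ2 made up 11.2% of the member chains in WT and 24.2% in Btla-/-, while TRAJ7 made up 18.8% and 9.64%. Without TRAJ2 the remaining members still took 11.6% of TRA chains in WT (10.2 to 13.2%) and 15.9% in Btla-/- (14.3 to 17.7%).

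The libraries differed in UMIs per chain, so the member share was also read at like depth. Among chains with 1 or 2 UMIs it was 12.4% in WT and 20.7% in Btla-/-. Among chains with 3 or 4 UMIs it was 13.7% and 20.4%. Among chains with 5 or more UMIs it was 12.6% (10.1 to 15.4%) in WT and 17.6% (13.8 to 21.9%) in Btla-/-, where the intervals overlapped. The Btla-/- share was above the WT share in each class.

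TRAV partners of the members lay far from the J cluster. The 128 annotated TRAV genes were divided by position into 3 stretches of 517 kb: distal (34 genes, TRAV1 to TRAV13D-2), central (52 genes, TRAV14D-2 to TRAV6-4) and proximal (42 genes, TRAV7-4 to TRAV23, nearest TRAJ). Proximal genes were used by 12.9% of member chains in WT (8.95 to 17.8%) and 8.07% in Btla-/- (5.55 to 11.3%). Among chains with any other TRAJ they were used by 48.1% in WT (45.6 to 50.6%) and 43.7% in Btla-/- (41.2 to 46.2%). Members therefore used proximal TRAV genes less than other chains did in both libraries, with intervals far apart.

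The share of proximal TRAV genes fell along the J cluster towards TRAC. In WT it was 69.7% for TRAJ42 to TRAJ58, 55.2% for TRAJ31 to TRAJ40, 29.8% for TRAJ21 to TRAJ30, 19.4% for TRAJ11 to TRAJ18 and 12.9% for the members. In Btla-/- the same blocks had 67.5%, 51.5%, 32.7%, 16.8% and 8.07%. The gradient thus had the same form in both libraries. Central TRAV genes took the largest part of the member chains, with 72.1% in WT and 68.8% in Btla-/-, against 36.2% and 37.8% of the other chains.

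Distal TRAV genes were used by 15% of member chains in WT (10.7 to 20.2%) and 23.2% in Btla-/- (19.0 to 27.7%), with overlapping intervals. With contigs of at least 3 UMIs alone, it was 11.3% (6.95 to 17.1%) and 24.6% (18.9 to 31.2%), where the intervals stood apart. In the other alternatives they overlapped, as with distinct chains counted once (10.9 to 20.5% in WT and 19.5 to 28.5% in Btla-/-). The other chains of the same libraries used distal genes in 15.7% and 18.6%. TRAJ2 did not show the gap between the libraries, with 18.5% distal partners in WT and 19.4% in Btla-/-. TRAJ7 had 8.89% (2.48 to 21.2%) in WT and 32.4% (18 to 49.8%) in Btla-/-, which is 4 of 45 and 12 of 37 chains, and these intervals overlapped. TRAJ4 had 29.5% in WT and 19.6% in Btla-/-.

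**Figure D2:**
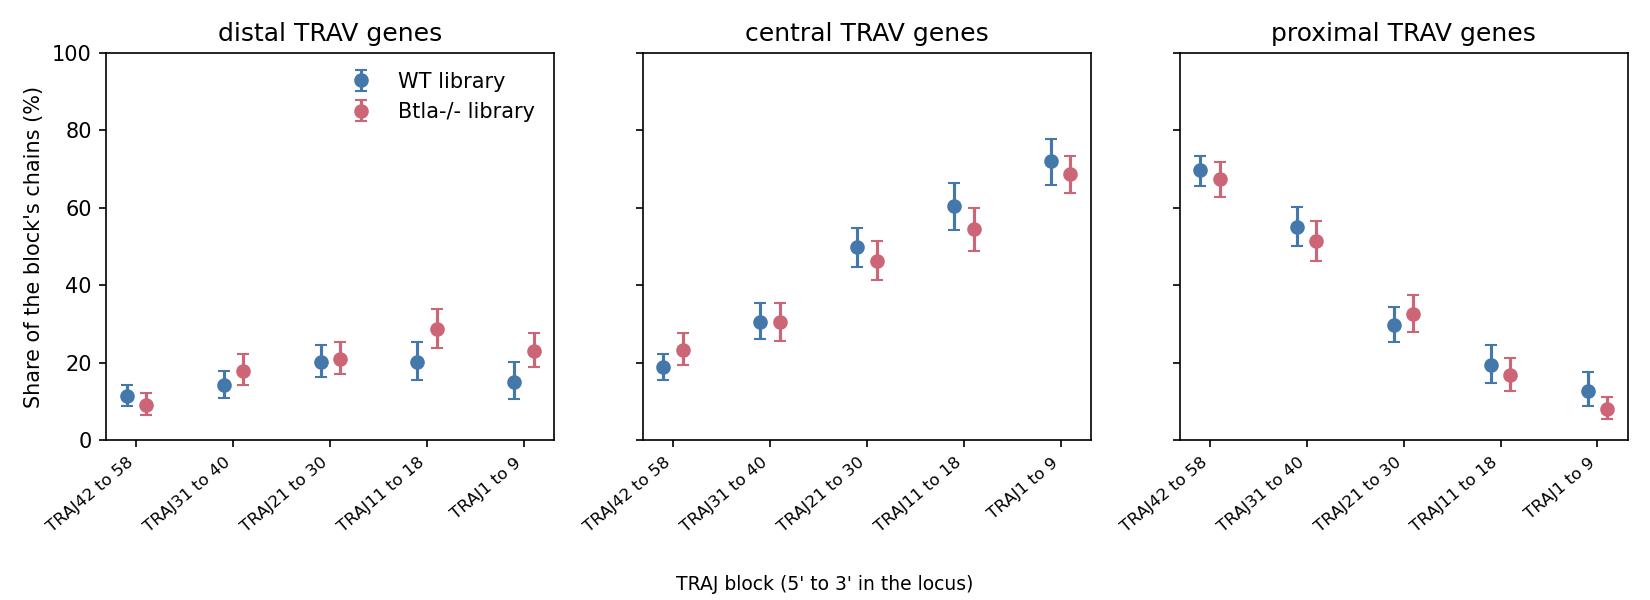
Share (%) of the chains of each TRAJ block that use distal, central or proximal TRAV genes, with blocks in locus order, the WT library in blue, the Btla-/- library in red and exact 95% intervals. Proximal genes fall from 69.7 to 12.9% in WT and from 67.5 to 8.07% in Btla-/- towards the block next to TRAC, while central genes rise.

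The member share was also read within each TRAV stretch. Of chains with a distal TRAV gene, 12.4% in WT (8.82 to 16.7%) and 23.8% in Btla-/- (19.6 to 28.4%) had a member segment. Of chains with a central gene it was 22.8% (19.8 to 25.9%) and 31.3% (28.2 to 34.5%). Of chains with a proximal gene it was 3.82% (2.61 to 5.38%) and 4.42% (3.02 to 6.21%), where the intervals overlapped. As a pair, TRAJ2 and TRAJ4 were higher in Btla-/- in every stretch, a split of the same chains and no separate support. They took 6.19% (3.71 to 9.60%) and 9.63% (6.83 to 13.1%) of chains with a distal gene, and 5.66% (4.12 to 7.55%) and 15.2% (12.8 to 17.8%) of those with a central gene. Of chains with a proximal gene they took 1.23% (0.593 to 2.26%) and 2.99% (1.86 to 4.54%). The intervals stood apart for central genes alone.

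The ends of the TRAV array were rare partners. TRAV17 to TRAV21, single-copy genes near the J cluster, occurred in 1 of 240 member chains in WT (0.417%, 0.0105 to 2.30%) and in 0 of 384 in Btla-/-, for which 3 counts of the total set a limit of 0.781% (exact upper bound 0.956%). Chains of TRAJ42 to TRAJ58 used them in 12.3% of WT and 12.0% of Btla-/- chains. TRAV1 and TRAV2, at the far end, occurred in 2 WT member chains (0.833%) and 8 Btla-/- member chains (2.08%), and in 1.11% and 2.28% of the other chains. The median distance from the TRAV gene to the TRAJ segment was 954 kb for WT members and 986 kb for Btla-/- members, against 754 and 840 kb for the other chains, although member segments themselves lie farther from every TRAV gene. Mouse TRAV subgroups are present as near-identical copies (marked D and N) in different stretches, so the stretch assigned to a chain rests on the deposited V call. Only 3 WT and 8 Btla-/- member chains used a subgroup without such a copy.

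At the level of TRAV subgroups, which the copies do not affect, the members drew on the large families. TRAV6 led in both libraries, with 42 WT chains (17.5%) and 63 Btla-/- chains (16.4%), against 15.9% and 15.4% of the other chains. In WT it was followed by TRAV13 (30 chains, 12.5%) and TRAV7 (28 chains, 11.7%), and in Btla-/- by TRAV7 (54 chains, 14.1%) and TRAV12 (46 chains, 12.0%). These shares overlapped with those of the other chains.

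By the mean of the signed differences in both libraries, which cancels opposite signs, the subgroups farthest from the other chains were TRAV3, TRAV8 and TRAV21. TRAV13 differed by 2.45 points in WT and -2.54 in Btla-/- and so dropped out of this order. The TRAV3 subgroup, which in all 44 members was the gene TRAV3N-3 of the central stretch (chr14:53283585-53284175), was used by 6.67% of WT members (3.86 to 10.6%) and 7.29% of Btla-/- members (4.90 to 10.4%). The other chains used the subgroup, there not only as TRAV3N-3, in 3.76% (2.89 to 4.80%) and 2.67% (1.92 to 3.60%), so the intervals stood apart in Btla-/- and overlapped in WT. TRAV8 was used by 7.08% of WT members (4.18 to 11.1%) and 5.73% of Btla-/- members (3.62 to 8.55%), against 2.77% (2.03 to 3.69%) and 2.99% (2.20 to 3.97%), with intervals apart in WT alone. TRAV21, a proximal gene, was used by 1 WT and 0 Btla-/- members, against 2.77% and 2.08% of the other chains.

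TRAV6 was the first or the next most frequent partner subgroup of each segment over both libraries, ties included. It was the most often joined to TRAJ6 (20 of 103 chains) and TRAJ5 (11 of 50). TRAV7 was joined to 21 of 120 TRAJ2 chains, of which 4 were WT and 17 Btla-/-, and TRAV6 to 20 of them. TRAJ4 had TRAV7 in 24 of 136 chains, of which 7 were WT and 17 Btla-/-, and TRAV6 in 21. TRAJ9 had TRAV13 and TRAV6 level at 20 of 133 chains, and TRAJ7 had TRAV12 and TRAV6 level at 13 of 82. Each segment was joined to many V genes, from 29 for TRAJ5 to 53 for TRAJ2. Likeness to the members was read by total variation distance over 20 TRAV subgroups (0 for identical usage, 1 for none in common). Among the other segments with at least 50 chains, the most alike were TRAJ12 (0.121), TRAJ23 (0.139) and TRAJ22 (0.147, level with TRAJ17 at this rounding). TRAJ38, at 0.131, had 30 chains and was left out by this minimum. Among the members, each set against the rest of them, TRAJ2 was the nearest at 0.140 and TRAJ5, with 50 chains, the farthest at 0.303. The distance grows as chains become fewer.

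The ends of the CDR3s followed the germline segments. Up to and including the last CDR3 codon, TRAJ9 can give 27 bases, TRAJ7 28, TRAJ6 and TRAJ5 31 each, TRAJ4 32 and TRAJ2 35, so the possible J part lengthened towards TRAC from 9 whole codons to 11. The second residue from the end was threonine in 6 of 6 member segments and in 14 of the other 37. All 624 chains kept the germline end codon and framework. Threonine therefore stood at that place in 240 of 240 WT and 384 of 384 Btla-/- member chains, against 31.6% of the other WT chains and 29.8% of the other Btla-/- chains.

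The last residue was phenylalanine for 5 members and leucine for TRAJ7, whose capital codon above is TTG. Leucine closed 18.8% of the member CDR3s in WT and 9.64% in Btla-/-, which are the TRAJ7 shares, against 2.03% and 1.24% of the other CDR3s. The third residue from the end was leucine for 5 members and proline for TRAJ6. The fourth was lysine for 4 of 6 members and for 24 of the other 37 segments, with arginine in TRAJ7 and glutamine in TRAJ5.

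CDR3 length of the members had a median of 14 amino acids in both libraries, and a mean of 13.9 (SD 1.40 over 240 chains) in WT and 14 (SD 1.53 over 384 chains) in Btla-/-. The other chains also had a median of 14 in both. Length followed the germline segment more than the library. TRAJ9 had a mean of 13.2 (SD 1.47, n = 60 chains) in WT and 12.7 (SD 1.43, n = 73) in Btla-/-, whereas TRAJ2 had 15.4 (SD 1.39, n = 27) and 15.5 (SD 1.25, n = 93). The 4 segments between them had means from 13.4 to 14.3.

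CDR3s of 15 or more residues made up 29.2% of WT members (23.5 to 35.4%) and 35.4% of Btla-/- members (30.6 to 40.4%). In Btla-/- this was above the 27.5% (25.3 to 29.8%) of the other chains, and in WT it was close to the 28.8% (26.6 to 31.1%) of the others. The other blocks were not alike. TRAJ42 to TRAJ58 had more long CDR3s than the members, with 40.1% in WT (36 to 44.3%) and 43.4% in Btla-/- (38.7 to 48.2%). Its interval overlapped with that of the members in Btla-/- alone. TRAJ2 alone had 70.4% long CDR3s in WT (49.8 to 86.2%) and 80.6% in Btla-/- (71.1 to 88.1%). Without TRAJ2 the members had 23.9% in WT and 21% in Btla-/-. TRAJ4 went the other way, with 45.5% long CDR3s in WT (30.4 to 61.2%) and 23.9% in Btla-/- (15.6 to 33.9%), and its intervals overlapped.

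Trimming of the J end was small. The member CDR3s kept a median of 28 germline J bases in both libraries, with a median loss of 2 bases in WT and 3 in Btla-/-. The J end was untrimmed in 27.9% of WT members (22.3 to 34.1%) and 20.1% of Btla-/- members (16.2 to 24.4%), against 23.1% and 23.2% of the other chains. TRAJ9 lost a median of 1 base in WT (interval 1 to 2) and 4 in Btla-/- (2 to 4), keeping 26 (25 to 26) and 23 (23 to 25) bases, with intervals that met at their ends. TRAJ4 lost a median of 4 bases in both libraries, and TRAJ7 lost 0 in WT and 1 in Btla-/-. Residues of the CDR3 that came from the V gene or the junction had a median of 5 for the members of both libraries, the same as for the other chains. The differences in CDR3 length between member segments thus went with their J part.

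**Figure D3:**
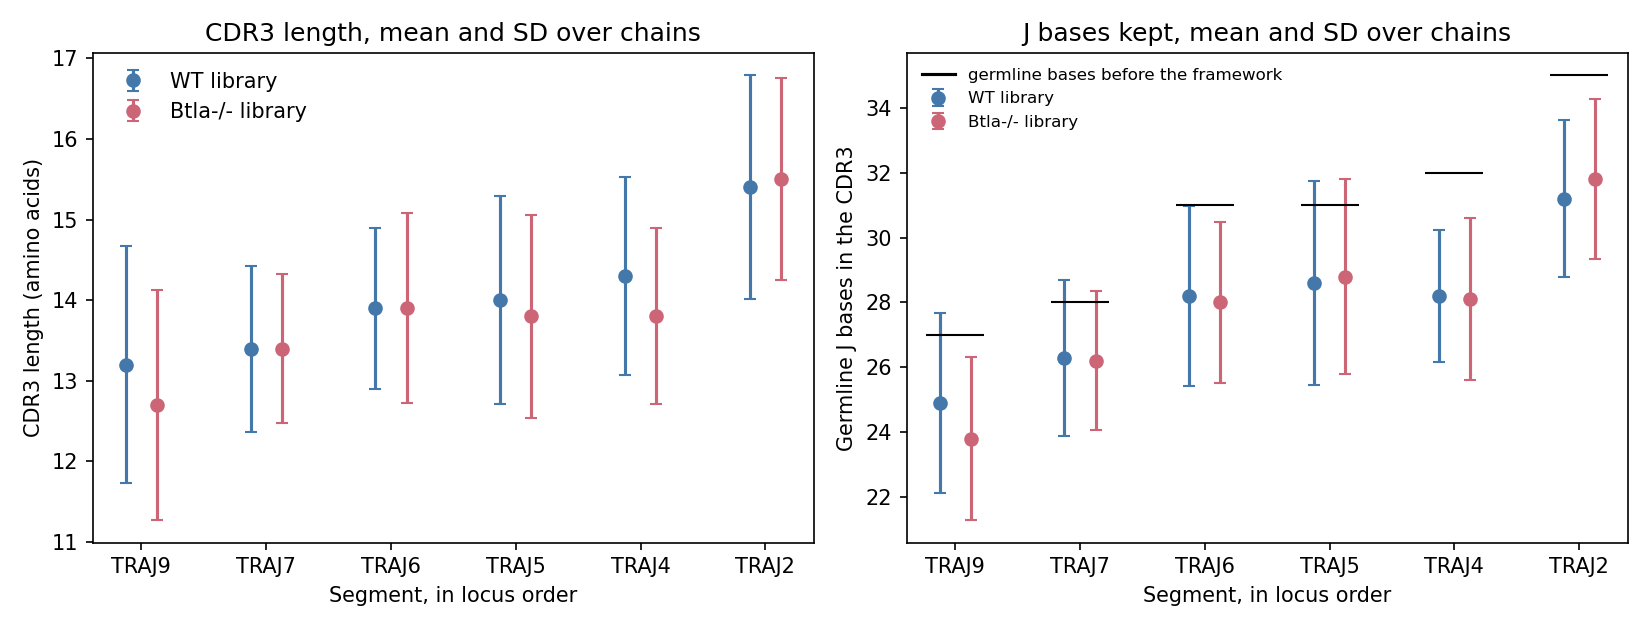
CDR3 length in amino acids (left) and germline J bases in the CDR3 (right) for each member segment in locus order, as mean and SD over chains, with the WT library in blue and the Btla-/- library in red; neither axis starts at 0. Black bars give the germline bases that each segment can contribute, from 27 for TRAJ9 to 35 for TRAJ2, and mean CDR3 length rises from 13.2 to 15.4 residues in WT.

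Nearly all cells with a member chain also had a TCR beta (TRB) chain, 222 of 229 in WT (96.9%, 93.8 to 98.8%) and 351 of 369 in Btla-/- (95.1%, 92.4 to 97.1%). In cells with other TRA chains only, it was 98.4% and 96.9%. Among the beta chains of member cells TRBV13 led with 32 of 240 TRB chains in WT (13.3%, 9.30 to 18.3%) and 52 of 393 in Btla-/- (13.2%, 10.0 to 17.0%), against 13.4% and 12.3% in the other cells.

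The next in WT were TRBV5 (9.58%) and TRBV12 (8.33%), and in Btla-/- TRBV12 (9.92%) and TRBV16 (7.63%). By the mean of the signed differences in both libraries, those farthest from the other cells were TRBV19, the joint call TRBV12-2+TRBV13-2 and TRBV15, although TRBV12 in WT (-3.04 points) and TRBV29 in Btla-/- (2.85 points) differed more in a single library. TRBV19 was used by 5.83% of WT and 3.82% of Btla-/- chains in member cells, against 8.05% and 5.63% in the others. The joint call took 6.25% and 6.36%, against 7.92% and 8.55%. TRBV15 took 7.92% and 5.85%, against 4.92% and 5.24%. The intervals of these 3 overlapped with those of the other cells. TRBJ2 segments were used by 61.7% and 58.5% of the beta chains of member cells and by 59.6% and 61.6% of those of other cells, with overlapping intervals.

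UMIs per member chain had a median of 3 in both libraries (interval 3 to 4 in WT, 2 to 3 in Btla-/-), with a range from 1 to 15 in WT and from 1 to 10 in Btla-/-. At least 3 UMIs were found for 70.0% of WT members (63.8 to 75.7%) and 52.9% of Btla-/- members (47.7 to 57.9%). The other chains had 68.6% and 54.9%, so depth differed between the libraries and not detectably between members and other chains by this measure. A single UMI stood behind 12.9% of WT members (8.95 to 17.8%) and 22.7% of Btla-/- members (18.6 to 27.2%), against 13.4% and 17.7% (15.8 to 19.7%) of the others.

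TRAJ5 chains had the fewest UMIs in WT, with a median of 2 (interval 2 to 4) and 45.8% of chains (25.6 to 67.2%) at 3 or more. In Btla-/- TRAJ5 and TRAJ7 had a median of 2 and the other members 3. In WT the highest medians were those of TRAJ6 and TRAJ2, at 4 each. The 3′ position of a segment was thus not matched by fewer UMIs, and TRAJ2, next to TRAC, had 77.8% of chains at 3 or more in WT and 53.8% in Btla-/-. TRAC was the constant gene called for 238 of 240 WT and 378 of 384 Btla-/- members, and the others had no call.

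**Figure D4:**
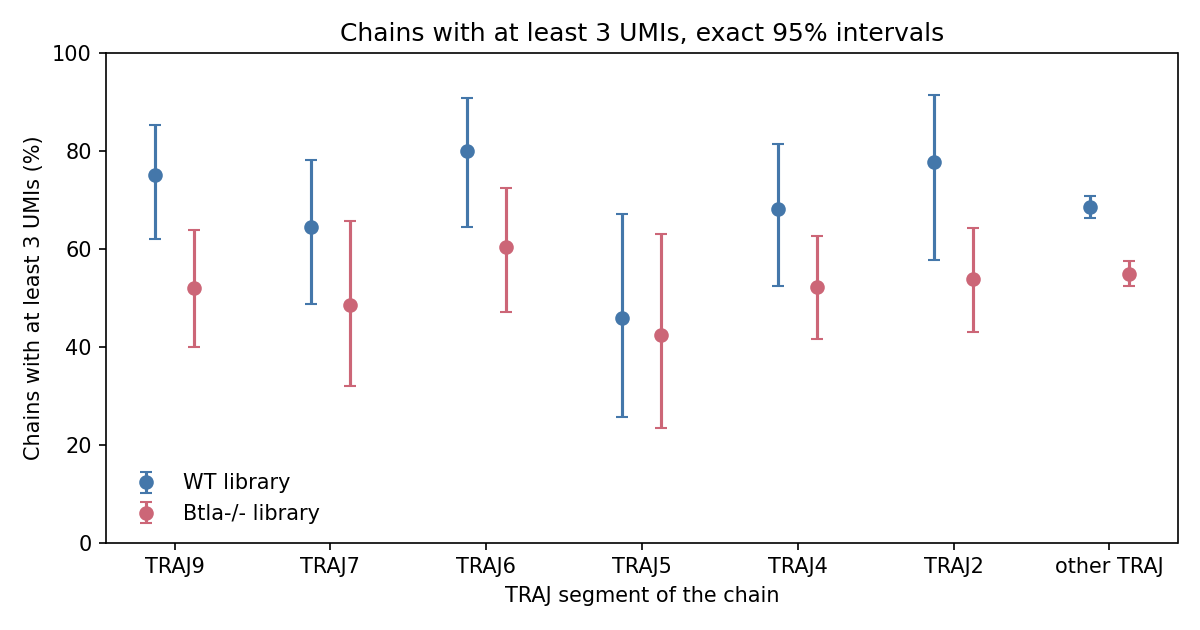
Share (%) of chains with at least 3 UMIs for each member segment and for chains with any other TRAJ, with exact 95% intervals, the WT library in blue and the Btla-/- library in red. Other chains are at 68.6% in WT and 54.9% in Btla-/-, and TRAJ5 has the lowest value of each library (45.8 and 42.3%).

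A cell can rearrange both alpha alleles. Of 158 WT and 122 Btla-/- cells with 2 TRA chains, 35 (22.2%, 15.9 to 29.4%) and 39 (32.0%, 23.8 to 41.0%) had a member chain. Both chains were members in 11 of the 35 WT cells (31.4%, 16.9 to 49.3%) and in 15 of the 39 Btla-/- cells (38.5%, 23.4 to 55.4%). Over both libraries the second chain of the 74 cells with a member was a member in 26, from TRAJ11 to TRAJ18 in 28, from TRAJ21 to TRAJ30 in 10, from TRAJ31 to TRAJ40 in 4 and from TRAJ42 to TRAJ58 in 6. Second chains were thus mostly from the 3′ part of the cluster in both libraries. Of the cells with 2 TRA chains and another segment, 16.3% in WT (10.7 to 23.3%) and 22.4% in Btla-/- (14.9 to 31.5%) also had a member. In each library these intervals overlapped with those of the 31.4% and 38.5% above. Over both libraries, 18.9% (14.3 to 24.3%) and 35.1% (24.4 to 47.1%) stood narrowly apart. Of all TRA chains, members took 12.9 and 20.0%, and TRAJ11 to TRAJ18 took 14.1 and 17.4%. No step removed droplets with 2 cells, and their part in these counts was not tested.

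Member chains were nearly all found once. Defined by V gene, J segment and CDR3 nucleotides, there were 236 distinct chains among the 240 of WT and 366 among the 384 of Btla-/-. In WT 3 of them occurred in more than 1 cell, and in 2 of these 3 the cells also had the same beta chain. In Btla-/- 17 occurred in more than 1 cell, and 7 of these 17 shared a beta chain. For the TRAJ4 chain with TRAV13D-4 only 1 of the 2 cells had a beta chain, so sharing could not be seen there. Among the other distinct chains, 39 of 1581 in WT and 47 of 1485 in Btla-/- occurred in more than 1 cell. No member chain was found in more than 3 cells of a library.

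The libraries had 4 member CDR3 nucleotide sequences in common. They are shown because they are the only member junctions found in both libraries, each in 1 cell per library. Among the other distinct chains, 25 of 1581 in WT and 26 of 1485 in Btla-/- had their CDR3 bases in the other library. For members it was 4 of 236 and 4 of 366. Capitals mark the bases that match the germline J segment.

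TRAJ6, TRAV3N-3 in both libraries: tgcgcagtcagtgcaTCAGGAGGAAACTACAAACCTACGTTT
TRAJ4, TRAV9N-4 in WT and TRAV12N-1 in Btla-/-: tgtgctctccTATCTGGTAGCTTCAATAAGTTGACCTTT
TRAJ9, TRAV6-5 in WT and TRAV12D-3 in Btla-/-: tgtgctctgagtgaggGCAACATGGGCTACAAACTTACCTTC
TRAJ5, TRAV6N-7 in WT and TRAV9N-4 in Btla-/-: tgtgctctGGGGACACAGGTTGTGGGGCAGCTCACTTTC

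The TRAJ6 chain was the only one with the same V gene in both libraries, supported by 4 UMIs in WT and 3 in Btla-/-. The other 3 had the same CDR3 bases from different V genes. The TRAJ5 junction matched the whole germline J part of 31 bases. Its V and J matches overlapped, by 1 base in WT and 3 in Btla-/-, so these bases may come from either gene. At the amino acid level 18 of the 236 distinct WT members (7.63%, 4.58 to 11.8%) and 23 of the 366 distinct Btla-/- members (6.28%, 4.02 to 9.28%) had their CDR3 in the other library too, against 5.63% and 6.13% of the other distinct chains. Counted as CDR3s by segment, 6 had TRAJ4, 5 had TRAJ9, and TRAJ5, TRAJ6 and TRAJ7 had 2 each. TRAJ2, which had the longest J part, had 0 among 27 distinct WT and 87 distinct Btla-/- chains.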

How the data were processed

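The authors made and deposited 1 contig table per library by running Cell Ranger 7.2.0 on GRCm38, holding raw counts of reads and UMIs for the productive, full-length contigs of called cells. Other deposited tables (CDR3 lengths, V usage and clone proportions) were not used. Every TRA contig with a J call from TRAJ1 to TRAJ9 was taken. Members, lists and measures were chosen with earlier results of these data known. Gene positions came from GENCODE M21 on GRCm38, and the segments, signals and coordinates from that genome. J bases kept were the longest exact match between the end of the CDR3 and the germline segment. Consensus signals were the standard heptamer and nonamer. Named genes were each segment with chains, the 3 TRAV and 3 TRBV subgroups most used in each library, and those 3 whose share differed most from other chains in the mean of both libraries. The 3 TRAJ segments most alike in TRAV usage, among those with at least 50 chains, were also named. Shares have exact 95% binomial intervals, medians have order-statistic intervals, and PCR reads are not independent molecules. At the depth of 1862 WT TRA chains, a share of 12.9% has an interval of 11.4 to 14.5%. Matching and intervals were tested on simulated data. In the simulated junctions the base before the kept J stretch always differed from germline. That test therefore could not show how often other bases match the segment by accident and add to the bases kept. Alternatives were a minimum of 3 UMIs, distinct chains, cells with 1 TRA and 1 TRB chain, shared barcodes left out, 1 TRA chain per cell and other summaries. Computations used Python 3.11.15, pandas 2.3.3, numpy 2.4.6 and scipy 1.17.1.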

Additional observations from a re-analysis of the deposited data

How the results depend on the processing

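No paired analysis was possible because each genotype was 1 library. Of 79 alternative values of the main results, 72 stayed within the interval of the reported value and 0 reversed. The difference in the member share between the libraries ranged from 6.26 points (contigs with at least 3 UMIs) to 7.23 points (the TRA chain with most reads in each cell), and every interval was above 0. With at least 3 UMIs, or with distinct chains counted once, 2 member segments in place of 3 reached 1.5 times the WT share. With at least 3 UMIs the distal TRAV share was 11.3% in WT and 24.6% in Btla-/-, and these intervals no longer overlapped. In the other alternatives for the distal share the intervals of the libraries overlapped. Using only TRAV subgroups without a D or N copy, the distal share was 66.7% of 3 WT chains and 100% of 8 Btla-/- chains, numbers too small to compare. In place of the median, the mean CDR3 length was 13.9 in WT and 14 in Btla-/-, and the mean number of UMIs in WT was 4.09. When the joint call TRBV12-2+TRBV13-2 was added to TRBV13, it took 19.6% in both libraries. The shifts with the mean and with the joint call follow from how those alternatives are built. The shift of the distal share without copied subgroups follows too. Such member chains used TRAV1 or TRAV2 at the far end (2 WT and 8 Btla-/-) or the proximal TRAV21 (1 WT). Why the remaining values shifted within their intervals was not tested. Depth limits single segments: at 27 chains, the interval of the TRAJ2 share in WT ran from 0.958 to 2.10%.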
